A study of Mus musculus with 18 samples.

Results

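The EGF receptor family and its ligands were followed across mouse lung tumours with and without restored p53. The members were 9 named genes, namely the receptors Egfr, Erbb2 and Erbb3 and the ligands Areg, Ereg, Hbegf, Btc, Tgfa and Egf, each taken by every probe set annotated to that single symbol. This gave 17 of the 22690 probe sets on the array, covering 8 of the 9 genes. Areg had no probe set with a single symbol and was not analysed here. Of the 8 genes, 7 lay above the array median on at least 4 of 18 arrays and were tested among 7300 genes, and Egf did not.

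The 18 tumours were microdissected from the lungs of 6 mice, 10 weeks old, of the strain C57/B6-129SvJae. Treated mice had received tamoxifen intraperitoneally in 2 injections, their tumours were taken on day 7 after the first, and the labels describe them as p53 restored. Untreated mice carried no stated agent, and the labels give neither the alleles nor the promoter or Cre driver. Grade 3 tumours are labelled adenocarcinomas and grade 2 tumours adenomas, and the groups held 6 (treated, grade 3) or 4 (each of the others) tumours. One female, mouse 8688, supplied every treated grade 3 tumour and 3 of the treated grade 2 tumours, and the remaining one, 8639T4, was a male's. The untreated tumours came from 4 males, with 8584 (1 tumour) and 8629 (2) in grade 3, 8700 (2) in grade 2, and 8565 in both (1 and 2). The effect of treatment and the effects of animal and sex cannot be told apart in grade 3, and hardly in grade 2. Tumours that share a mouse are correlated, which makes p-values over tumours too small for treatment, since treatment lies between mice. For grade, compared partly within mice, p-values over tumours can err in either direction. Values are log2 signals with array medians of 6.05 to 6.18, and precision is limited by how few arrays there were. Levels are not compared between genes, since each probe set has its own response. The tissue label was checked on epithelial genes: Sftpc, a surfactant protein of alveolar type 2 cells, lay at 12.31 to 13.49 and the epithelial adhesion gene Epcam at 9.90 to 10.68, whereas Nkx2-1, a lung lineage regulator, lay at 3.21 to 4.26, below the array median on all 18 arrays. The p53 gene itself was not analysed here.

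As background, the ERBB receptors are membrane tyrosine kinases that pair with themselves or with one another when a ligand binds. ERBB2 binds no known ligand and acts as a partner, and ERBB3 has little kinase activity of its own but recruits PI3 kinase well. The ligands are made as membrane-bound precursors and released by ADAM proteases, and in lung the family serves epithelial growth and repair.

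The genes of Areg, Ereg and Btc lie near one another on mouse chromosome 5. In the RefSeq annotation of GRCm38.p6, Ereg spans chr5:91074617-91093649, Areg chr5:91139599-91148432 and Btc chr5:91357261-91402994. Egfr (chr11:16752203-16913907) and Erbb2 (chr11:98412484-98437716) lie far apart on chromosome 11, and Erbb3 lies at chr10:128567523-128589635. Tgfa lies at chr6:86195038-86275744 and Egf at chr3:129677574-129755322. Promoter windows of 250 bases before a transcript start were given by RefSeq for 6 of the 9 members. The windows of the receptor Egfr and of Egf, the ligand after which the family is named, are shown because Egfr held a GC box and Egf was the only member with a match to the p53 decamer, a single copy of the repeat that p53 binds. A further window of Egf, at an inner start, held no match. The Egfr window is chr11:16751953-16752202 on the plus strand and the Egf window chr3:129755323-129755572 on the minus strand, both 5′ to 3′ with matches in capitals.
Egfr: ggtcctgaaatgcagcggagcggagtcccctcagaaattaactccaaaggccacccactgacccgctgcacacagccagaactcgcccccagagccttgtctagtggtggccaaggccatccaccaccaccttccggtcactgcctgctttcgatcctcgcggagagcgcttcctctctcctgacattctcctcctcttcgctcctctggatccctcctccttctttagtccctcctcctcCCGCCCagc
Egf: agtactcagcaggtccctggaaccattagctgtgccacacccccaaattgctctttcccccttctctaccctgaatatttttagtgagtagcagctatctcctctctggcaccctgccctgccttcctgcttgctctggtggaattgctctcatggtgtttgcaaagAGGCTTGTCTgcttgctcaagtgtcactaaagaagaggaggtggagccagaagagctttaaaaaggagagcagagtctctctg
The GC box (GGGCGG, capitals CCGCCC on the other strand) matched in Egfr 9 to 4 bases before the start, and 32.74% of 32851 promoter windows of the same length held 1 or more. Of the 6 members with a window, 3 held a GC box, Egfr and Areg with 1 match each and Tgfa with 2. The Tgfa window, chr6:86194972-86195221 on the plus strand, lies before an inner start and partly covers the gene itself. The p53 decamer matched in Egf 83 to 74 bases before the start, and 7.13% of all windows held a match. The TATA box (TATAAA, in 12.37% of windows) matched only in Areg and the AP-1 site (TGANTCA, in 6.75%) in none of the members with a window. Both strands were searched, and the motifs were read as letters, not as bound sites. GC content was 60.8% in the Egfr window and 50.4% in the Egf window, against a median of 52.4% over all windows.

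None of the 7 tested members differed between groups at an adjusted p under 0.05 in any of 5 comparisons fitted with limma. The comparisons were treatment in grade 3, treatment in grade 2, the difference between those effects (the interaction), and grade 3 against grade 2 in untreated and in treated tumours. Among all 7300 genes the share called was 0.466% for treatment in grade 3, 0.0685% for treatment in grade 2, 0.0% for the interaction, 0.178% for grade in untreated tumours and 0.0% for grade in treated tumours. At an unadjusted p under 0.05 the members counted 1, 1, 2, 2 and 1 of 7 in that order, against 8.84%, 6.99%, 9.11%, 12.5% and 1.93% of all genes. The smallest adjusted p among the members belonged to Tgfa, which read higher in treated than in untreated grade 2 tumours. Ereg read highest in untreated grade 3 tumours, without overlap with the other 3 groups.

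**Figure D1:**
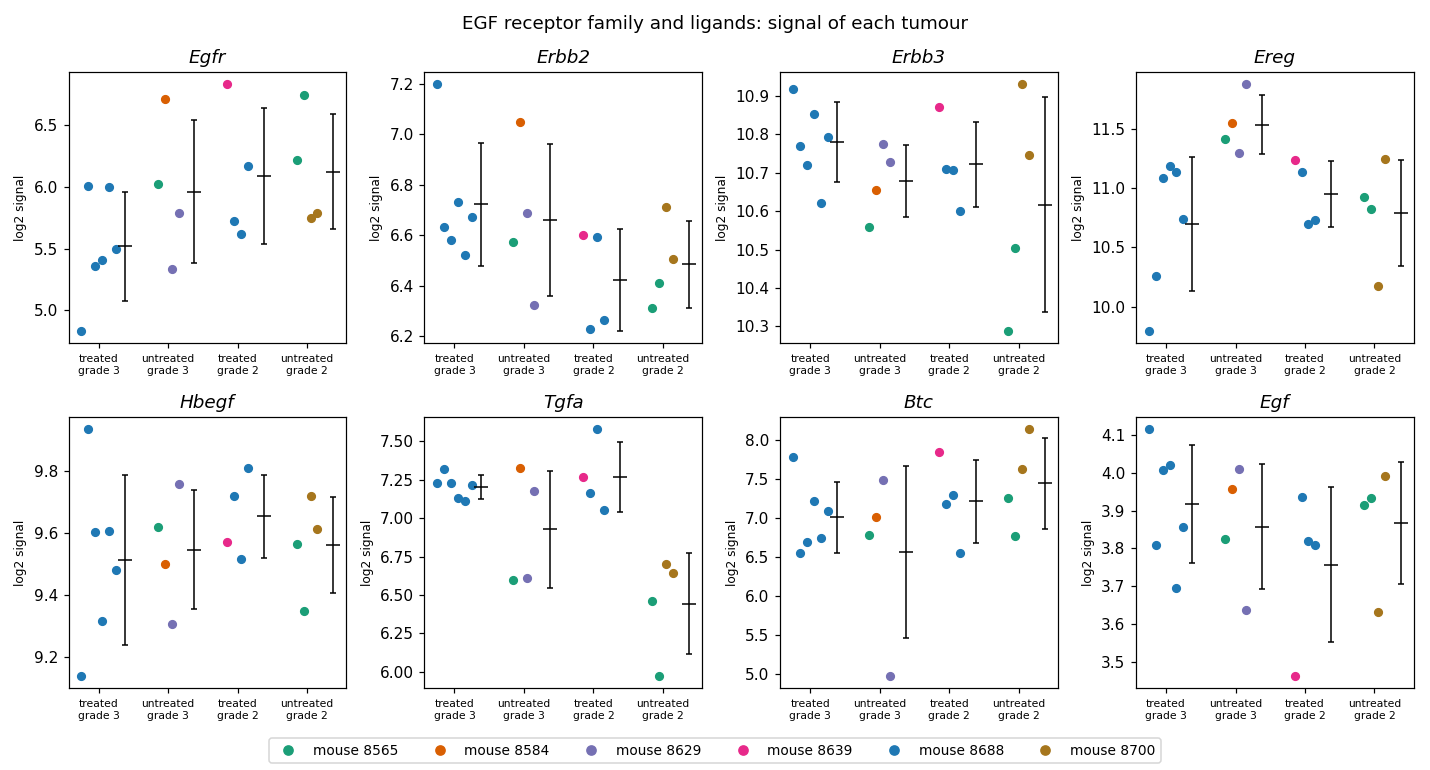
Log2 signal (y axis) of the members' probe set with the highest mean, per tumour, in 4 groups (x axis), with points coloured by mouse and black bars for the group mean ± SD. Ereg in untreated grade 3 tumours (11.30 to 11.88) lies above the other 3 groups, and Tgfa in untreated grade 2 tumours (5.97 to 6.70) lies below treated grade 2.

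Among the receptors, Egfr, which binds the ligands listed here, gave a signal above the array median on 5 arrays only, and its other 4 probe sets reached at most 3.56, below the median on all arrays. Those 5 arrays were 8688T9, 8639T4, 8584T3, 8565T3 and 8565T4, so no treated grade 3 tumour helped Egfr pass the filter. In treated grade 3 tumours its signal ran from 4.83 through a median of 5.46 to 6.01, and in untreated grade 3 tumours it was 6.72 in 8584T3, 6.02 in 8565T1, 5.33 in 8629T10 and 5.79 in 8629T12. In grade 2 it was 5.62, 6.17, 6.83 and 5.73 in treated tumours (8688T8, 8688T9, 8639T4 and 8688T10) and 5.75, 5.79, 6.22 and 6.75 in untreated ones (8700T1, 8700T3, 8565T3 and 8565T4). The groups overlapped in every comparison, with the lowest value in 8688T1 and the highest in 8639T4. The means in treated tumours were 5.52 ± 0.44 (SD, n = 6) in grade 3 and 6.09 ± 0.55 (n = 4) in grade 2, and in untreated tumours they were 5.96 ± 0.58 (n = 4) and 6.13 ± 0.47 (n = 4). The largest fitted difference was grade in treated tumours, at -0.48 (SE 0.27, 95% interval -1.06 to 0.09, limma adjusted p = 0.997), and it was -0.32 as a plain difference within mouse 8688 and -0.82 with one mean per mouse and group. Treated minus untreated was -0.28 (interval -1.06 to 0.50) in grade 3 and 0.04 (interval -0.76 to 0.83) in grade 2.

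Erbb2, the partner receptor, was above the median on all 18 arrays with a single probe set. In treated grade 3 tumours it ran from 6.52 through a median of 6.65 to 7.20, and in treated grade 2 tumours it was 6.59 in 8688T8, 6.27 in 8688T9, 6.60 in 8639T4 and 6.23 in 8688T10. Untreated grade 3 tumours read 7.05, 6.58, 6.69 and 6.32 and untreated grade 2 tumours 6.71, 6.51, 6.31 and 6.41, in the tumour order given for Egfr. The treated grades overlapped through 8639T4 and 8688T8, the upper end of grade 2. Treated grade 3 tumours lay above treated grade 2 by 0.32 (SE 0.14, 95% interval 0.02 to 0.62), which did not pass (limma adjusted p = 0.997), and an exact two-sided permutation test over tumours gave p = 0.0762, or 0.533 adjusted over 28 such tests. The group means were 6.72 ± 0.24 (SD, n = 6) and 6.42 ± 0.20 (n = 4). Without 8688T1, the highest tumour, the fitted difference was 0.23. Grade 3 minus grade 2 was 0.36 within mouse 8688 and 0.21 within mouse 8565, which had 1 grade 3 and 2 grade 2 tumours.

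Erbb3, the receptor that carries PI3 kinase docking sites, varied least. Its signal ran from 10.62 through 10.78 to 10.92 in treated grade 3 tumours, and over all 18 tumours from 10.29 in 8565T3 to 10.93 in 8700T1, a 1.56-fold range on the linear scale. Its SD of 0.16 was at the 12.6th percentile of the tested genes, whose median SD was 0.24. The fitted treatment effects were 0.12 in both grades (95% intervals -0.17 to 0.40 in grade 3 and -0.17 to 0.41 in grade 2). Its second probe set lay between 1.88 and 2.67, below the median on all arrays.

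Among the ligands, Ereg (epiregulin, which binds EGFR and ERBB4) read 11.55 in 8584T3, 11.41 in 8565T1, 11.30 in 8629T10 and 11.88 in 8629T12, the 4 untreated grade 3 tumours. The 6 treated grade 3 tumours of mouse 8688 ran from 9.80 through a median of 10.91 to 11.19. Untreated grade 2 tumours read 10.18 and 11.24 in mouse 8700 and 10.93 and 10.82 in mouse 8565, and treated grade 2 tumours read 10.70, 10.73, 11.24 and 11.13. Every untreated grade 3 tumour was above every tumour of the other 3 groups, which overlapped among themselves. For treatment in grade 3, 4.92% of all tested genes showed no overlap in either direction, and for grade in untreated tumours 6.45% did; Ereg was 1 of 7 members in each. The fitted treatment difference in grade 3 was -0.75 (SE 0.36, 95% interval -1.50 to -0.0023, limma adjusted p = 0.563). The fitted grade difference in untreated tumours was 0.70 (SE 0.32, interval 0.03 to 1.38, limma adjusted p = 0.377). Both comparisons use the same 4 untreated grade 3 tumours and are not independent. By an exact two-sided permutation test over tumours, the plain difference of -0.83 for treatment in grade 3 gave p = 0.0095, the smallest that 210 splits allow, and that of 0.74 for grade gave p = 0.0286, the smallest that 70 splits allow. Both became 0.267 when adjusted over 28 tests. The test for treatment takes tumours of the same animal as replicates, since all treated grade 3 tumours were of mouse 8688. It cannot separate treatment from animal. In grade 2 the treatment difference was 0.17 (interval -0.59 to 0.93), and the interaction was -0.92 (SE 0.41, limma adjusted p = 0.539). Within mouse 8565 the grade 3 tumour was 0.54 above the mean of its grade 2 tumours, whereas in mouse 8688 the difference between the grades was -0.15. Of the alternatives, sex as a covariate moved the fitted treatment difference in grade 3 furthest, to -0.44. That fit cannot separate sex from treatment within grade 3, where all treated tumours were female and all untreated ones male. Its sex term rested on the only male treated tumour, 8639T4 of grade 2. No alternative gave a limma adjusted p below 0.0902 for the treatment difference in grade 3. Array weights moved the grade difference in untreated tumours to 0.40.

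Of the lists of markers of other cells, some differed in level between these groups and others overlapped, and not every list is given here. A listed gene is counted as above the median if it was so on at least 4 arrays. The alveolar type 1 list (6 of 6 genes measured and above the median) averaged 10.45 to 10.84 in untreated grade 3 tumours, below its range of 10.93 to 11.31 in treated grade 3 and 10.87 to 11.32 in untreated grade 2 tumours. The mast cell and basophil list averaged 2.78 to 3.15 in untreated grade 3 against 2.44 to 2.97 and 2.39 to 2.49. By that count 0 of its 8 genes were above the median, though the highest value of Mcpt8 was 8.02. The macrophage list (10 of 10) overlapped, at 9.94 to 10.18 against 9.95 to 10.41 in treated grade 3. The club and ciliated list (4 of 5 genes above the median, Foxj1 below it) averaged 6.07 to 8.31 in treated and 8.18 to 9.54 in untreated grade 3 tumours, with Scgb3a2, a club cell secretory protein, at a fitted difference of -4.58 (limma adjusted p = 0.384), and it averaged 7.64 to 10.21 in untreated grade 2. The endothelial list (6 of 6) averaged 6.86 to 7.93 in untreated grade 3 against 7.67 to 8.65 in untreated grade 2 and 7.34 to 7.90 in treated grade 3 tumours. For grade in untreated tumours 4 of its 6 genes had an unadjusted p under 0.05, against 12.5% of all genes, and 0 passed. In the alveolar type 1 list 1 of 6 genes passed for treatment in grade 3, against 0.466% of all genes. This was Rtkn2, at a fitted difference of 1.95 (limma adjusted p = 0.0015). The part of these lists in the Ereg result was not tested. In bulk tumours, fewer cells of a type and less RNA per cell cannot be told apart.

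Hbegf, a heparin-binding ligand of EGFR, had 2 probe sets above the median on all 18 arrays, and the one with the higher mean is described. It read 9.14 through a median of 9.54 to 9.93 in treated grade 3 tumours, 9.52, 9.81, 9.57 and 9.72 in treated grade 2, 9.50, 9.62, 9.31 and 9.76 in untreated grade 3 and 9.72, 9.61, 9.56 and 9.35 in untreated grade 2 tumours. All groups overlapped. The fitted differences lay between -0.16 (the interaction) and 0.10 (treatment in grade 2), and the 95% interval for treatment in grade 3 was -0.46 to 0.32. The other probe set ran from 6.96 to 7.86, and its correlation with the first over the 18 tumours was 0.48.

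Tgfa, the ligand transforming growth factor alpha, was read by 1 probe set above the median on 17 arrays; its other 2 probe sets were below it on all. Treated grade 2 tumours read 7.58 in 8688T8, 7.05 in 8688T9, 7.27 in 8639T4 and 7.16 in 8688T10, and untreated grade 2 tumours read 6.70 in 8700T1, 6.64 in 8700T3, 6.46 in 8565T3 and 5.97 in 8565T4. These groups did not overlap. All of these treated tumours but 8639T4 came from the female mouse 8688, so treatment could hardly be told apart from animal and sex. Treated grade 3 tumours ran from 7.11 through 7.22 to 7.32 and untreated grade 3 tumours read 7.33, 6.60, 6.61 and 7.18. For treatment in grade 2, 8.08% of all tested genes did not overlap in either direction, and Tgfa was 1 of 7 members. The fitted difference was 0.79 (SE 0.21, 95% interval 0.35 to 1.22), ranked 34 of 7300 genes by p, and it missed the threshold (limma adjusted p = 0.278). With no mouse term it was 0.82 (limma adjusted p = 0.0472), with array weights 0.62 (adjusted p = 0.00261) and without mouse 8565 0.60 (adjusted p = 1.0), the ends of the adjusted p over all alternatives being 0.00261 and 1.0. The exact two-sided permutation test gave p = 0.0286 for the plain difference of 0.82, the smallest that 70 splits allow, and 0.267 after adjustment over 28 tests. That test, too, takes tumours of the same animal as replicates. In grade 3 treatment gave 0.25 (interval -0.18 to 0.68), the interaction was -0.54 (SE 0.24, limma adjusted p = 0.539), and untreated grade 3 exceeded untreated grade 2 by 0.47 (SE 0.18, interval 0.08 to 0.86, limma adjusted p = 0.303). Array weights moved this grade difference to 0.15, and leaving out 8565T4 moved it to 0.31. The treatment difference in grade 3 was 0.40 without 8584T3, 0.14 without either 8565T1 or 8629T10, 0.13 without mouse 8565 and 0.45 with array weights. Mouse means of the untreated tumours were 7.33 in 8584, 6.89 in 8629, 6.60 and 6.22 in grade 3 and grade 2 of 8565, and 6.67 in 8700, against 7.20 and 7.26 in 8688 and 7.27 in 8639. In the same grade 2 groups the B and plasma cell list (4 of 6 genes with a probe set, 3 above the median) averaged 6.80 to 7.55 in treated and 7.80 to 8.66 in untreated tumours, without overlap. The fibroblast list averaged 8.16 to 8.80 and 8.76 to 9.35 and the epithelial list 10.82 to 11.16 and 10.93 to 11.27. Their part in the Tgfa result was not tested.

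Btc (betacellulin, a ligand of EGFR and ERBB4) varied most among the members, by 9.0-fold between its lowest and highest tumour, with an SD of 0.70 at the 95.5th percentile of tested genes. The range and the SD both lean on tumour 8629T12 at 4.97, since the next lowest, 8688T9, read 6.54. The SD without 8629T12 was not computed. Untreated grade 3 tumours read 7.00, 6.78, 7.49 and, in 8629T12, 4.97, and untreated grade 2 tumours read 7.63, 8.14, 7.25 and 6.76. Treated grade 3 tumours ran from 6.55 through 6.91 to 7.79 and treated grade 2 tumours read 7.29, 6.54, 7.84 and 7.17. All groups overlapped, and 8629T12 was the lowest of all 18 tumours in Btc and the highest in Ereg. The fitted grade difference in untreated tumours was -0.75 (SE 0.48, 95% interval -1.76 to 0.27, limma adjusted p = 0.521), -0.32 without 8629T12, -0.22 with mouse as a fixed term and -1.33 without mouse 8565. With array weights it was -1.21 (adjusted p = 0.0444, the lowest over the alternatives, which reached 0.999). A second probe set, below the median on all arrays, correlated with the first at 0.86. Egf, by its one probe set, was below the array median on all 18 arrays, at 3.46 to 4.11, and was not tested.

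**Figure D2:**
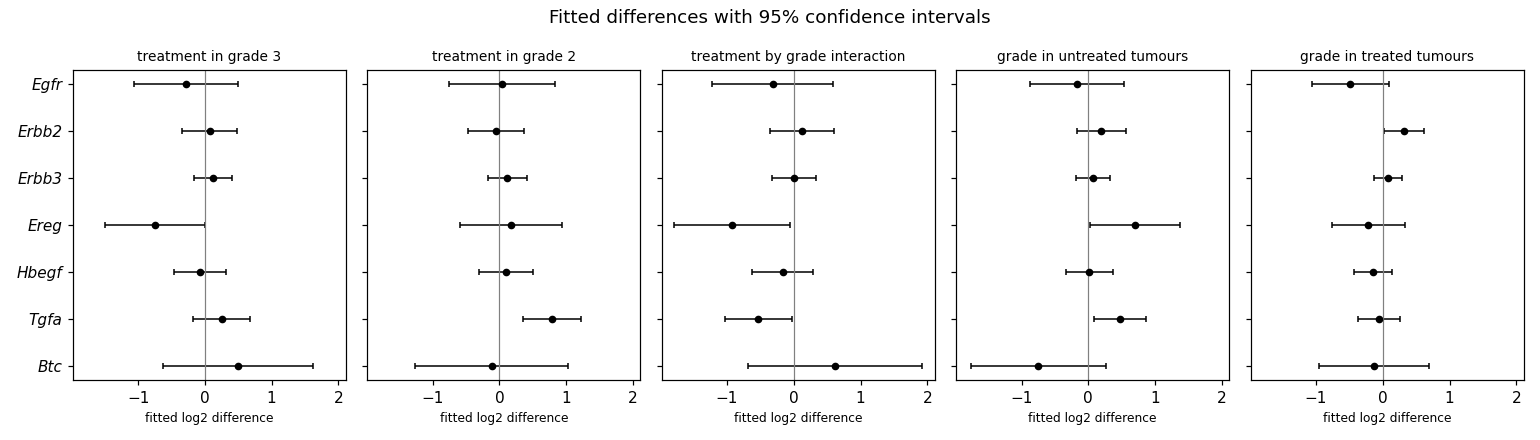
Fitted log2 differences with 95% intervals (x axis) for the 7 tested members (y axis) in the 5 comparisons, from the limma fit over all 18 tumours. The interval for Tgfa in treatment in grade 2 runs from 0.35 to 1.22, and no difference passed an adjusted p of 0.05.

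In the treated tumours, where 0.781% of all tested genes showed no overlap between grades, all 7 members overlapped. Grade 3 minus grade 2 fell between -0.48 for Egfr and 0.32 for Erbb2, and 9 of the 10 treated tumours are of mouse 8688. The differences within that mouse were -0.32 for Egfr, 0.36 for Erbb2, 0.11 for Erbb3, -0.15 for Ereg, -0.17 for Hbegf, 0.01 for Btc and -0.06 for Tgfa.

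Over the 18 tumours the members did not vary as one group. Beside Btc, Egfr (SD 0.53, 91.8th percentile) and Ereg (0.51, 91.1st) varied widely, followed by Tgfa (0.40), Erbb2 (0.25), Hbegf (0.20) and Erbb3. Pearson correlations between members, as a description over tumours that share mice and groups, ran from -0.57 between Erbb2 and Hbegf to 0.53 between Erbb2 and Erbb3. The genes most like the 3 most variable members by Pearson correlation over the 18 tumours were Tmem163 (0.88), Aox3 (0.86), Mnat1 (0.86) and Mmp11 (0.86) for Btc. For Egfr they were Pde9a (0.82), Snhg5 (0.81), Igfbp5 (0.80) and Appl1 (0.79), and for Ereg they were Bok (0.82), Rasgrf1 (0.78), Fxyd3 (0.77) and Tnfrsf12a (0.75).

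**Figure D3:**
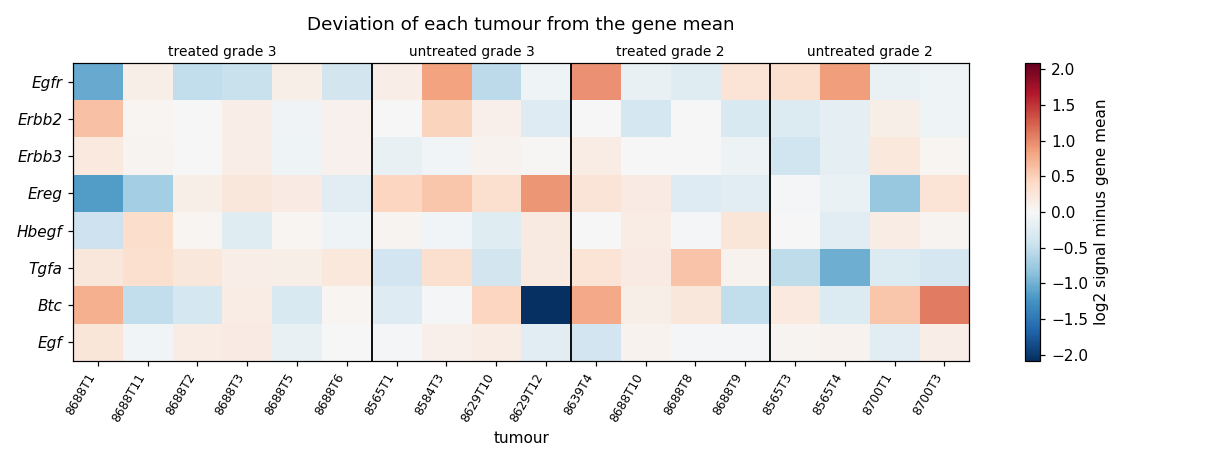
Deviation of each member with a probe set (rows, with Egf shown though it was not tested) from its own mean over the 18 tumours, in log2 units (colour), by tumour (columns) in the 4 groups. Tumour 8688T1 is lowest of all in Egfr, Ereg and Hbegf and highest in Erbb2.

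Other genes of the pathway did not pass either. Of 69 listed genes 48 were tested, and 0 rose and 0 fell in any of the 5 comparisons by limma. At an unadjusted p under 0.05 the counts were 2, 1, 5, 5 and 0 of 48, in the order of comparisons used for the members. The shares of all tested genes were 8.84%, 6.99%, 9.11%, 12.5% and 1.93%. The median difference of the listed genes lay between -0.016 and 0.020. Of the other listed receptor and ligands of the family, Erbb4 (2.57 to 3.07), Nrg3 (2.36 to 3.16), Nrg4 (4.06 to 5.62) and Epgn (2.67 to 5.02) were below the median on all arrays. The ligands Nrg1 and Nrg2 were also listed but had no probe set with a single symbol, so they were not measured here.

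The 2 genes with the smallest p in each list are named, since none passed. Of 9 tested shedding genes, the protease Adam8 read 5.30 ± 0.27 (SD, n = 6) in treated and 6.79 ± 0.87 (n = 4) in untreated tumours of grade 3, with a fitted difference of -1.43 (SE 0.46, limma adjusted p = 0.241), and Adam17, the main sheddase of Tgfa and Hbegf, differed by -0.37 with treatment in grade 2 (SE 0.15, adjusted p = 0.659). Of 13 adaptor and signalling genes, the kinase subunit Pik3ca differed by -0.26 with grade in untreated tumours (adjusted p = 0.419) and the adaptor Grb7, which binds ERBB2, by 0.41 with grade in treated tumours (adjusted p = 0.997). Of 13 genes that restrain or turn over the receptors, the ubiquitin ligases Cbl and Cblc had an interaction of 0.61 (adjusted p = 0.539) and a grade difference in untreated tumours of 0.44 (adjusted p = 0.399). Of 13 endocytosis genes, the clathrin adaptor Epn1 differed by 0.40 with grade in untreated tumours (SE 0.12, adjusted p = 0.193) and the clathrin heavy chain Cltc by 0.32 with treatment in grade 3 (SE 0.13, adjusted p = 0.398).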

How the data were processed

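From each tumour 100 ng of total RNA was amplified and labelled with biotin, per the labels' protocols. The deposited values are log2 signals of probe sets, for which the submitters' processing notes name GCRMA 2.20.0 and R 2.11.0. That method adjusts background for probe sequence and quantile normalises, so differences in total RNA are lost. No scan date is used. Of 22690 probe sets, 20380 had 1 symbol and 691 several; only the former were named. Each of 12393 genes was read by its brightest probe set, and tested if it exceeded the median of 4 or more arrays. A model of 4 group means over all 18 tumours, with mouse as a random block (correlation 0.259), was fitted in limma 3.58.1 (R 4.3.3), with Benjamini-Hochberg adjustment over 7300 genes and a threshold of 0.05. Because the filter looks at signal, a gene could pass through a group in which it was high. Exact permutation tests used scipy 1.17.1 in Python 3.11.15. The steps were tested on simulated data. Array correlations of 0.975 to 0.997 showed no duplicates; 3' minus 5' control signal was highest in 8688T3 (2.62) and 8639T4 (1.85).

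The members and gene lists were chosen with earlier results of these data known. The text names all members, the 2 genes of each pathway list with the smallest p where none passed, and the 4 genes best correlated with each of the 3 most variable members. Leaving out whole mice was added after seeing the data. The closing section gives the effect of the alternatives.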

Additional observations from a re-analysis of the deposited data

Results flagged for a closer look

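Erbb2 in the treated grade 3 tumours had 1 sample far from the others. Tumour 8688T1 read 7.20, and its gap to the next tumour was 0.689 of the group's range, above Dixon's 95% critical value of 0.625 for 6 samples. This was 1 of 32 member and group combinations examined, and chance marks about 1 in 20.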

How the results depend on the processing

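The member differences were refitted under up to 35 settings, 18 of which left out 1 tumour, and probe sets were also fitted singly. Not every setting gave all 35 differences: averaging the probe sets of each gene gave 25, since Egfr and Tgfa then fell below the filter, only the groups compared gave 28, mouse as a fixed term 14 and mouse 8688 alone 7. Of 1159 values, 1095 kept their direction and side of the threshold, 60 turned direction, 4 newly passed and 0 ceased to pass; 0 tested members passed in the analysis as reported, so no call could be lost. Tgfa alone passed in treatment in grade 2 with no mouse term (1 member), and array weights called 2 members there, Tgfa and Btc, and 1 in grade in untreated tumours, Btc; array weights also gave the most calls over all genes (up to 1975, against 5). No setting that left out a tumour or a mouse called a member. Over all genes, 34, 5, 0, 13 and 0 calls ranged over 0 to 374, 0 to 1975, 0 to 124, 0 to 844 and 0 to 0. Mouse as a fixed term compares the grades within mice 8565 and 8688 and called 0 members; treatment could not be estimated with it, since no mouse held treated and untreated tumours. The tumours' few arrays and Egfr's low signal limit these values.

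Values that turned were as follows. With no mouse term they were -0.036 for Egfr in treatment in grade 2, -0.00473 for the Erbb3 interaction and -0.015 for Hbegf grade in untreated tumours. With one mean per mouse and group they were -0.0298 (Erbb3 interaction) and -0.011 (Hbegf grade untreated), with only the groups compared -0.0052 (the same Hbegf), and with further quantile normalisation -0.0185 and array centring -0.015 (Erbb3 interaction). Mouse as a fixed term, sex as a covariate and mouse 8688 alone each gave 0.0057 for Btc grade in treated tumours. Sex as a covariate also gave 0.55 for Egfr in treatment in grade 3, 0.43 for Btc and 0.11 for Erbb2 in treatment in grade 2. The sex term rested on 8639T4, the only male treated tumour, so these values do not separate sex from treatment. Array weights gave 0.0304 for Hbegf in treatment in grade 3, -0.067 for Erbb3 and -0.22 for Ereg in treatment in grade 2, and -0.0787 for Erbb3 and -0.065 for Hbegf grade in untreated tumours. Without the tumours with a 3' excess Egfr in treatment in grade 2 was -0.3. Without mouse 8700 it was -0.298 for Egfr, 0.34 for Btc and 0.054 for Erbb2 in treatment in grade 2, and -0.17 for the Erbb3 interaction. Without mouse 8565 it was -0.0913 for Erbb3 and -0.0268 for Hbegf in treatment in grade 2, and 0.27 for Egfr, -0.13 for Erbb3 and -0.15 for Hbegf grade in untreated tumours. Without mouse 8629 it was -0.067 for Erbb2 in treatment in grade 3, -0.00662 for Egfr in treatment in grade 2 and 0.098 for Egfr grade in untreated tumours. Leaving out 1 tumour at a time gave -0.021 to 0.20 for Erbb2 and -0.15 to 0.0054 for Hbegf in treatment in grade 3. In treatment in grade 2 it gave -0.41 to 0.083 for Btc, -0.29 to 0.24 for Egfr, -0.13 to 0.012 for Erbb2 and -0.048 to 0.35 for Ereg, and -0.072 to 0.10 for the Erbb3 interaction. In grade in untreated tumours it gave -0.41 to 0.032 for Egfr, -0.025 to 0.14 for Erbb3 and -0.052 to 0.087 for Hbegf, and in treated tumours -0.37 to 0.0057 for Btc and -0.14 to 0.059 for Tgfa. The cause was not tested for any of these.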

Other observations

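Tumour 8688T1 was at the highest or lowest end of the treated grade 3 group for 6 of the 7 tested members, and at the end of all 18 tumours for 4 of them, Egfr, Ereg and Hbegf lowest and Erbb2 highest. 8700T1 was at an end of the untreated grade 2 group for 6 members, and at the end of all tumours for 1 of them, Erbb3. Each member has a highest and a lowest tumour in every group, so in groups this small an end is a common place. Tumours 8629T10 and 8639T4 were each at an end of their group for 5 members. The 3' minus 5' control signal of 8688T1 was 0.71, among the values of 1.05 or less seen in all but 2 tumours.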
